A study of Mus musculus with 15 samples.

Results

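The cells described here are stem-called cells of the mouse small intestine, split by how many mitosis genes each one held. The authors' cell table marks a cell as stem, and cells so marked from the proximal and distal small intestine numbered 3920 of 14547 small intestine cells and of 18919 cells in all. Of these, 3861 had at least 3000 unique molecular identifiers (UMIs, each standing for 1 captured RNA molecule). A cell was called dividing when at least 5 of 10 gate genes (Top2a, Mki67, Nusap1, Prc1, Kif11, Cenpf, Aurkb, Ube2c, Hmmr and Cdk1) had 1 UMI or more, and resting when none or 1 of them did. That gave 1387 dividing cells, 1121 resting cells and 1353 cells between the states. The cells were thus selected on the UMIs of the gate genes, and their levels are given as a description with no test.

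The mice were 6 months old and all carried the Lgr5-eGFP-IRES-CreERT2 allele, in which the promoter of the stem cell gene Lgr5 also drives a green fluorescent protein and an inducible Cre. This allele is known to be expressed in some crypts and not in others. Control mice (n = 2) ate a purified diet with 10% of kcal from fat and high fat diet mice (n = 3) a diet with 60%, and each mouse gave a proximal and a distal sample, 10 in all. Single cells were captured by Seq-Well, in small wells holding barcoded beads. The stem call matched the presence of at least 1 UMI of Lgr5 or eGFP in 18919 of 18919 cells, so neither gene is a result within these cells, and the call is easier to reach in deeply sequenced cells. Of 18898 barcode sequences, 16 occurred in more than 1 library.

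Stem cells at the crypt base of the intestine express Lgr5 and divide often, and their daughters move up the crypt as transit-amplifying cells that divide further before they become absorptive or secretory cells. A cell that enters the cycle first copies its DNA, for which E2F factors switch on the replication genes, and then separates the copies in mitosis. The mitosis genes are switched on later through the MuvB complex together with B-MYB and FOXM1. MuvB binds a short element known as the CHR, often near a CCAAT box that NF-Y binds. A high fat diet was shown in earlier work on this tissue to raise stem cell number and genes of fatty acid oxidation through PPAR-delta, which is the setting of the study.

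Promoters of 5 genes that differed between the states are shown so that these elements can be seen beside the values given later. Each line holds the 200 bases before the transcription start from RefSeq on GRCm38.p6, the build that mm10 names, written 5′ to 3′ on the gene's own strand. Capitals mark matches to the CHR (TTTGAA or TTCGAA), the CCAAT box (CCAAT) or E2F (TTTCCCGC, TTTGGCGC, TTTCGCGC or TTTGCCGC) on either strand, and the 2 E2F matches of Mcm5 overlap. Cdc20 lies at chr4:118437344-118437543 on the minus strand, Kif22 at chr7:127042421-127042620 (minus), Espl1 at chr15:102296093-102296292 (plus), Mcm5 at chr8:75109309-75109508 (plus) and Orc1 at chr4:108579254-108579453 (plus). These 5 were chosen after their values were seen, because they hold the elements before the start. In Cdc20 the CHR begins 18 bases before the start, in Kif22 17 and in Espl1 27.
Cdc20: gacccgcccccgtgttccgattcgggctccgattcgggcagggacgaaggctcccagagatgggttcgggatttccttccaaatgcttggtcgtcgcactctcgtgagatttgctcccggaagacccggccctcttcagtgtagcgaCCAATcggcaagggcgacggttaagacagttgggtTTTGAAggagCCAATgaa
Kif22: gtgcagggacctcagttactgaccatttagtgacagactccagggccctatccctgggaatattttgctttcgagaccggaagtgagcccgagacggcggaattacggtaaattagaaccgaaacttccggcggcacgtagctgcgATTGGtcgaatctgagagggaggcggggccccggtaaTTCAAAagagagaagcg
Espl1: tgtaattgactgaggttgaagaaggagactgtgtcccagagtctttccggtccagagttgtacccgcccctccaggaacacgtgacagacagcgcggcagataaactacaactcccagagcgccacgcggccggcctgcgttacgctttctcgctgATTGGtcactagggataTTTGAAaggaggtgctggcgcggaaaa
Mcm5: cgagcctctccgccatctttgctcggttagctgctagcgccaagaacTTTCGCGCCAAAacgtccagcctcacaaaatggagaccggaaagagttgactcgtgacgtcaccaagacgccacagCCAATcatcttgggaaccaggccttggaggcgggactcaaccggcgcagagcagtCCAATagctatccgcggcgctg
Orc1: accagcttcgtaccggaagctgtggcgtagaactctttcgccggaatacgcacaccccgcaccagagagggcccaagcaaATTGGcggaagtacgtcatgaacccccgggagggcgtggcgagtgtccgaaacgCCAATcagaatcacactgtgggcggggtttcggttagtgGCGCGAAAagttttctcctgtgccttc

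Over promoters of 250 bases before to 50 after the start, the CHR letters were present in 69.4% of 49 mitosis genes outside the gate that had a promoter in the table, against 16.4% of 7183 tested genes with one and 21.7% of all 27025 gene symbols there. The CHR and a CCAAT box stood together in 57.1% of the mitosis genes and in 6.86% of tested genes. E2F letters were present in 40.0% of 45 DNA replication genes and in 5.30% of tested genes. A match is a string of letters in a window and not a shown binding site.

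The number of gate genes per cell was spread over the whole range. There were 444 cells with none and 598 cells with all 10, with the fewest cells, 126 and 127, at 7 and 8 gate genes. At the lower threshold, cells with 1 gate gene had Mki67 at 119.6 CPM (UMIs of a gene scaled to a library sum of 1000000) and Top2a at 36.7 CPM, and cells with 2 had 217.5 and 89.7 CPM. At the upper threshold, cells with 4 gate genes had Mki67 at 515 CPM and Top2a at 233 CPM, against 789.5 and 411.3 CPM in cells with 5.

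**Figure D1:**
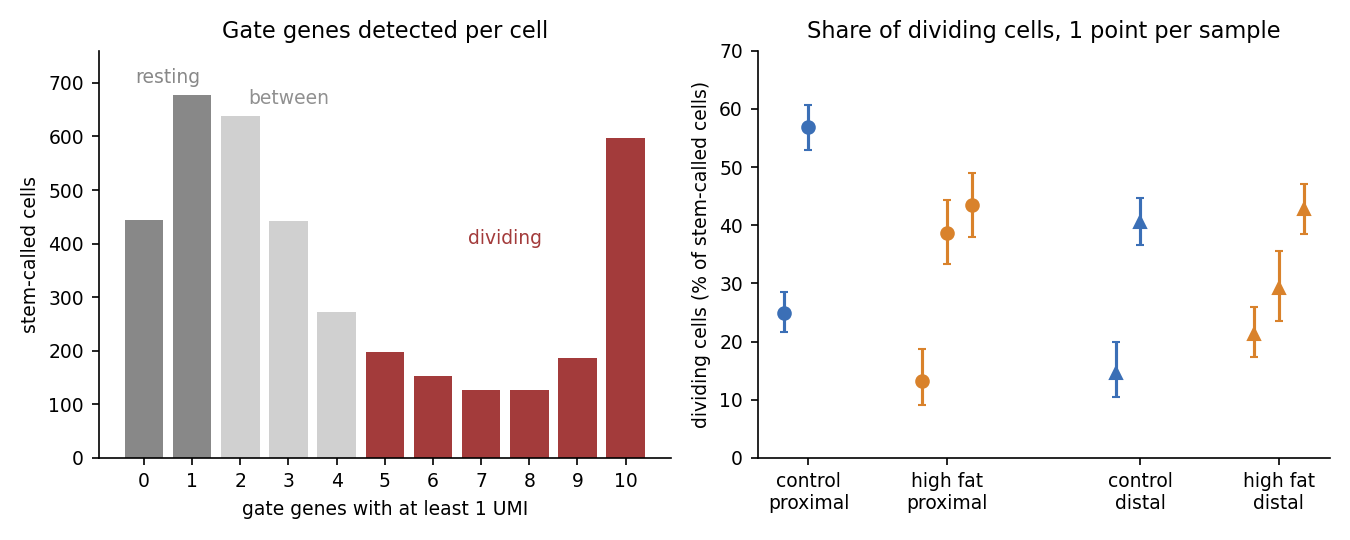
Left, stem-called small intestine cells by the number of gate genes with at least 1 UMI, with resting cells in dark grey, cells between the states in light grey and dividing cells in red. Right, dividing cells as a percentage of stem-called cells in each of the 10 samples with 95% Wilson intervals (counting error only); the 2 diets overlap in both organs.

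Mki67, which codes for the proliferation antigen Ki-67, was at 33.4, 78.8 and 145 CPM (lowest, median and highest of 10 samples) in resting cells, at 217, 406 and 600 CPM between the states and at 1456, 2204 and 2950 CPM in dividing cells. The states did not overlap. Top2a, a topoisomerase that untangles DNA before it is divided, was at 13.6, 27.2 and 39.5 CPM in resting and at 685, 1351 and 2190 CPM in dividing cells. In both genes the lowest dividing value came from the proximal sample of high fat diet mouse 1. As a description, Lgr5 stood at 293 ± 76 CPM in resting and 162 ± 46.4 CPM in dividing cells (SD, n = 10), in a setting where 1 UMI suffices for the call and dividing cells are deeper.

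The gate was not empty outside the stem call. It called 31.2% of 10210 small intestine cells without the stem call dividing, against 35.9% of the stem-called cells. Among cells without the call, it was passed by 2.86% of 140 cells with more than 5% of their UMIs in absorptive markers and 4.76% of 63 cells rich in Paneth markers, both types that do not divide. It was passed by 9.74% of 154 cells with over 1% of their UMIs in T and B cell markers. Median depths were 18116, 14209 and 5714 UMIs in these 3 sets and 14631 in stem-called cells.

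The share of dividing cells varied as much within a diet as between diets. Proximally, the control mice had 25% and 56.9% and the mice on high fat diet 13.2%, 38.7% and 43.4% (two-sided exact permutation p = 0.7). Distally, values were 14.6% and 40.5% on control diet, and 21.4%, 29.2% and 42.7% on high fat diet (exact permutation p = 0.8). With 2 mice against 3 such a test cannot go below 0.10. The proximal share was above the distal share in 4 of 5 mice, by 5.77 percentage points on average (exact paired permutation p = 0.1875, smallest possible 0.0625). Sequencing depth moves this share: with each cell thinned to 3000 UMIs, the stem-called cells as a whole held 19.3% dividing cells.

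Dividing cells held more RNA molecules than resting cells in 10 of 10 samples. The ratio of median UMIs was 1.45 to 2.88 in the proximal and 1.40 to 2.01 in the distal small intestine. A deeper cell shows more gate genes, so part of this is fixed by the rule. When the gate was read on 3000 randomly drawn UMIs of each cell, the ratio was still 1.3 to 2.65 in the proximal and 1.31 to 1.5 in the distal samples, above 1 in 10 of 10 (exact sign-flip p = 0.0625 in each organ, the smallest 5 mice allow). The 2.65 came from 6 dividing cells in the proximal sample of high fat diet mouse 1, and the highest of the other proximal samples was 1.47. Cells were also paired within 10% of each other's depth, 622 per state, and values from those pairs are given below as values in depth-matched cells. The proximal sample of high fat diet mouse 1 stood apart with 25 dividing cells and the ratio of 2.88, against 1.45 to 1.57 in the other proximal samples.

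**Figure D2:**
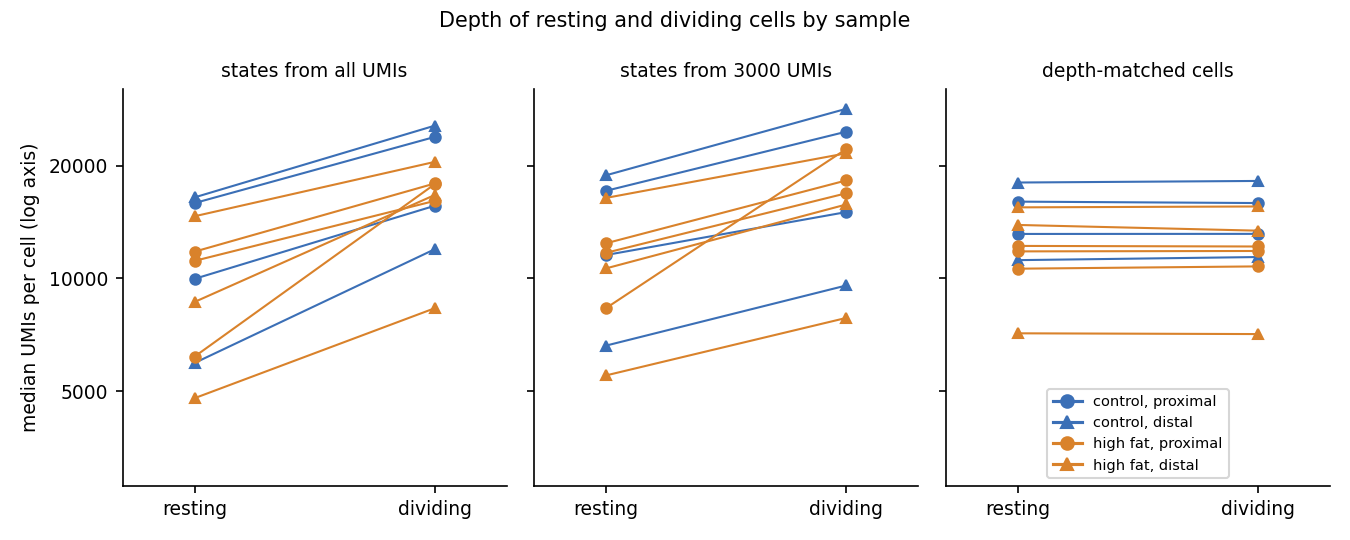
Median UMIs per cell (log axis) of resting and dividing cells, 1 line per sample, with the gate read on all UMIs, on 3000 UMIs per cell, and in depth-matched pairs. Dividing cells lie above resting cells in all 10 samples of the first 2 panels, and the lines are flat in the third.

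Pooled over the samples, resting cells also held more cells rich in the markers of other intestinal types. Cells above a marker limit for Paneth, goblet, enteroendocrine, tuft, absorptive or T and B cell genes made up 10.3% of resting, 7.39% of between and 4.04% of dividing cells. The samples were uneven. Without marked cells, 55 of 102 resting cells were left in the distal sample of high fat diet mouse 3. In the proximal sample of high fat diet mouse 2 the order was reversed, with 78 of 80 resting and 108 of 116 dividing cells left. In the distal sample of that mouse 83 of 94 resting and 56 of 63 dividing cells were left, about equal shares. Doublets called by Scrublet (209 cells, 1.44% of small intestine cells) made up 0.892% of resting and 3.32% of dividing cells. Fewer cells of a type and less RNA per cell cannot be told apart in summed counts. Values without the marked cells are given beside secretory genes where enough counts were left for a test. The marked cells were picked by the same marker lists, so leaving them out lowers those genes most in the state that holds more such cells, and the values are a description and no test of where the RNA came from.

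Counts were summed per sample and state, and dividing was compared with resting within samples by edgeR's quasi-likelihood test, with each sample as a block. Of 9420 genes outside the gate, 3843 (40.8%) passed an adjusted p of 0.05, of which 1901 (20.2%) were higher and 1942 (20.6%) lower in dividing cells. The median gene was at a log2 fold change of -0.03. Scaled to library totals alone, without edgeR's TMM factors, the split was 2496 higher and 1313 lower and the median moved to 0.05. With 1 value per mouse, averaging its 2 organs in limma, 2607 genes were called (1419 higher, 1188 lower), and without high fat diet mouse 1 edgeR called 3622. In the depth-matched pairs 2356 of 7968 genes were called (1194 higher, 1162 lower). Counts of called genes in the lists below are to be read against these shares.

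The same direction was reached in both organs for many genes. In the separate fits, 2439 of 9782 genes (24.9%) were called in the proximal and 2351 of 9444 (24.9%) in the distal small intestine. Without control mouse 1 the proximal count was 1580. Of 9287 genes tested in both, 926 (9.97%) were called higher in each, which is 72.6% of the proximal and 77.0% of the distal rises, and 593 (6.39%) lower in each, 54.9% and 55.1% of the falls. The 3 genes called in opposite directions were Mt2, Spcs3 and Ssr3, named after their values were seen. Within samples, 13.8% of genes were higher and 3.73% lower in dividing cells in 10 of 10. The states did not overlap at all over the 10 samples for 373 genes that were higher (3.96%) and 13 that were lower (0.138%).

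Mitosis genes outside the gate rose without exception among those tested. All 60 tested of 64 listed were called higher by edgeR, as were all 58 that could be tested in depth-matched cells, with a median log2 fold change of 4.49 (quartiles 3.50 and 5.15) against -0.03 over all genes, and for 58 the states did not overlap. They are switched on together with the gate genes, so this describes the cells the gate picked and is not independent of it. Kif2c and Ttk had resting means of 0.79 and 1.80 CPM, and members this low passed the low-count filter through the dividing sums. For such members a rise was nearly fixed in advance, and p-values of this list are a description. The summed level of the list was 663.1, 825.9 and 1345 CPM (lowest, median, highest) in resting cells, 1306, 1636 and 2519 CPM between the states and 6369, 8711 and 10904 CPM in dividing cells. The step thus lay mostly between the intermediate and the dividing cells.

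Among the regulators that start mitosis, Ccnb1, the cyclin partner of Cdk1, averaged 1.06 ± 2.31 CPM in resting and 56.0 ± 30.5 CPM in dividing cells (SD, n = 10). Ccna2, the cyclin that spans replication and entry into mitosis, had 9.15 ± 10.1 and 296 ± 54.3 CPM. The kinase Plk1 rose by a log2 fold change of 4.65 ± 0.12 (SE), Aurka by 4.10 ± 0.15 and the transcription factor Foxm1 by 4.57 ± 0.18, with adjusted p of 9.43e-17, 8.21e-15 and 4.83e-14 in edgeR's test. Pttg1, which holds the enzyme separase in check until the chromosomes part, rose least of the list at 0.45 ± 0.12.

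Cdc20, which activates the complex that starts chromosome separation and whose promoter is printed above, was at 0.67, 4.15 and 17.2 CPM (lowest, median, highest) in resting cells, 7.22, 17.0 and 34.9 CPM between the states and 75.2, 124 and 167 CPM in dividing cells. The states did not overlap, and the highest resting value was again the proximal sample of high fat diet mouse 1. Its log2 fold change was 4.48 ± 0.21 (SE), with an adjusted p of 6.33e-13 in edgeR's test and 4.66 in depth-matched cells. Kif22, a motor that pushes chromosomes to the spindle's middle, rose by 5.15 ± 0.23, and Espl1, the separase itself, by 5.14 ± 0.26. The 4 strongest of the list were Kif2c, Anln, Nuf2 and Ttk, which act at the kinetochore or, for the actin binder Anln, in the cleavage furrow, with log2 fold changes of 6.51, 6.09, 5.83 and 5.80. Resting levels of these 4 averaged 0.79 to 2.14 CPM, so the size of their folds rests on few UMIs.

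The 12 largest rises outside the listed cell cycle genes, among genes with at least 20 CPM, had log2 fold changes of 4.63 to 6.30. Esco2, which locks sister chromatids together after replication, was at 0, 1.54 and 9.55 CPM in resting and 86.4, 126 and 198 CPM in dividing cells. No resting sample came near a dividing one, and the log2 fold change was 6.30 ± 0.21. Aspm at the spindle poles rose by 6.13 ± 0.18, Shcbp1, a partner of the midbody, by 6.07 ± 0.25, Iqgap3 by 5.56 ± 0.17 and the cytokinesis gene Kif14 by 5.43 ± 0.28. Sgol2 and Casc5, both of the centromere, reached 4.99 and 4.94 and Cep55, of the last step of cell separation, 4.97. The PCNA-binding factor gene 2810417H13Rik was at 4.93 and Prr11 at 4.65, and the DNA repair genes Neil3 and Fancd2 at 4.75 and 4.63. Adjusted p of these 12 lay between 3.32e-16 and 4.73e-11 in edgeR's test. Each was higher in 10 of 10 samples, which the choice of genes required. The genes were chosen by the size of their rise, so these p-values are a description and give no support of their own. The limit of 20 CPM was on the mean of both states, and resting means of Esco2, Aspm, Shcbp1 and Kif14 were 2.03, 1.76, 1.41 and 1.37 CPM. Genes this low at rest met the limit through the dividing sums, so a rise was nearly fixed in advance for them. Many of the 12 act in cell division themselves, so like the mitosis list they describe the cells the gate picked and are not independent of it.

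DNA replication genes rose by less, and more of their rise was already present between the states. Of 60 tested, 58 were called higher and none lower, with a median log2 fold change of 1.1 and 1.18 in depth-matched cells, and the states did not overlap for 37. Their summed level was 2479, 3430 and 4166 CPM in resting, 4836, 5439 and 6225 CPM between the states and 6346, 7178 and 8492 CPM in dividing cells. Cells between the states had thus already covered about as much of this rise as remained, unlike for the mitosis genes. The mean between the states was above both others in 6 of the 60 and in 0 of the 60 mitosis genes, against 1836 of all 9420 genes, so such a peak was not more common among replication genes than over all genes.

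**Figure D3:**
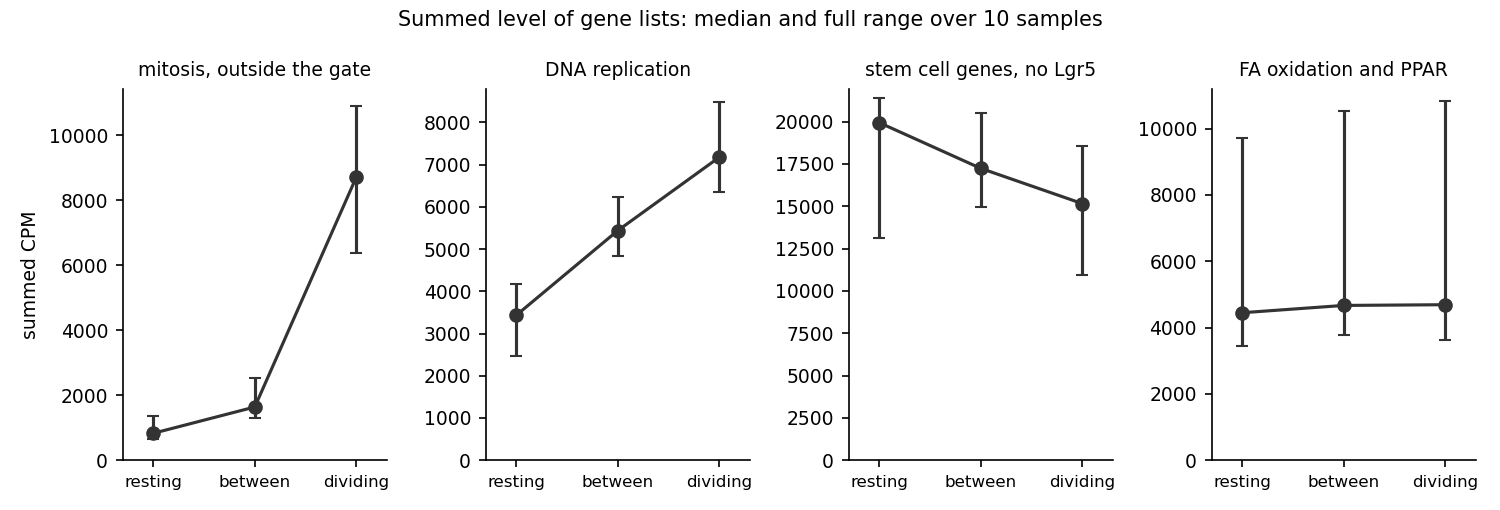
Summed CPM of 4 gene lists in resting, between and dividing cells, with points at the median and bars over the full range of 10 samples. Mitosis genes step up last, replication genes climb over all 3 states, stem cell genes decline, and fatty acid oxidation genes differ little at the median.

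The largest rises of the replication list were not the helicase. Rad51ap1, of recombination repair, rose by 4.11 ± 0.22, the checkpoint adaptor Clspn by 3.95 ± 0.18 and the histone chaperone Asf1b by 3.91 ± 0.16. Pcna, the clamp that holds the polymerase on DNA, averaged 87.6 ± 19.3 CPM in resting, 156 CPM between and 224 ± 47.5 CPM in dividing cells, a log2 fold change of 1.27 ± 0.08 (SE, adjusted p = 8.07e-11 in edgeR's test).

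Mcm5, a subunit of the MCM helicase that opens the DNA, was at 81.5, 105 and 151 CPM in resting, 153, 196 and 272 CPM between the states and 209, 243 and 273 CPM in dividing cells. Resting samples lay below all others, while between and dividing overlapped. Its log2 fold change was 1.09 ± 0.09 with an adjusted p of 3.77e-09 in edgeR's test. Other subunits moved less, Mcm4 by 0.50, Mcm3 by 0.46 and Mcm6 by 0.31, all called, and Mcm2 at 0.11 ± 0.08 was not (adjusted p = 0.285). Mcm2 was highest between the states, at 202 ± 18.4 CPM against 146 ± 26.7 in resting and 164 ± 20.7 in dividing cells.

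The early replication genes differed when the gate was read on fewer UMIs. With the gate read on 3000 UMIs of each cell, which puts more cells into the resting set, 43 of 60 replication genes were called higher and 6 lower. That fit also lacked the proximal sample of high fat diet mouse 1, whose 6 dividing cells were under the minimum of 10 per sum. The 6 were Mcm2, Mcm3, Mcm4, Mcm6, the licensing factor Cdt1 and the repair enzyme Ung, at -0.75, -0.59, -0.53, -0.43, -0.78 and -2.08. Mcm5 fell to 0.18, and Orc1, the largest subunit of the origin complex, went from 0.79 ± 0.18 to -0.14. In the mitosis list 61 of 61 were then called higher. Licensing genes were thus higher with the gate on all UMIs and in the depth-matched pairs (0.41 to 0.64 for Mcm3, Mcm4, Mcm6 and Cdt1). They turned in the fit with the gate on 3000 UMIs, and the parts of the gate and of the missing sample in this were not tested.

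Enzymes that make DNA precursors rose with replication. Of 31 tested nucleotide synthesis genes 22 were called higher and 1 lower, with a median of 0.35. Rrm2 and Rrm1, the subunits of ribonucleotide reductase, rose by 3.79 ± 0.18 and 1.93 ± 0.10, thymidine kinase Tk1 by 3.54 ± 0.17 and thymidylate synthase Tyms by 2.07 ± 0.10. Tyms was at 30.0, 39.9 and 72.6 CPM in resting and 140, 165 and 258 CPM in dividing cells, with no overlap. Psat1, of serine synthesis, was at 1.23 ± 0.14.

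Chromatin and cytoskeleton genes followed. Of 34 chromatin and histone genes 30 were called higher and 1 lower, with a median of 0.79. The linker histone Hist1h1b was at 0, 3.06 and 11.5 CPM in resting and 36.2, 204 and 344 CPM in dividing cells, a log2 fold change of 5.76 ± 0.22, and Hist1h1a reached 4.16 ± 0.23. The lowest dividing value of Hist1h1b, 36.2 CPM, was the proximal sample of high fat diet mouse 1, with the next at 114 CPM. Messages of these histones mostly lack a poly(A) tail, so their CPM may not follow their amount in the cell. Of 9 tubulin and stathmin genes 7 rose and 0 fell, with Tuba1b at 2.12 ± 0.08, Tubb4b at 1.86 ± 0.12 and Tubb5 at 1.81 ± 0.08.

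**Figure D4:**
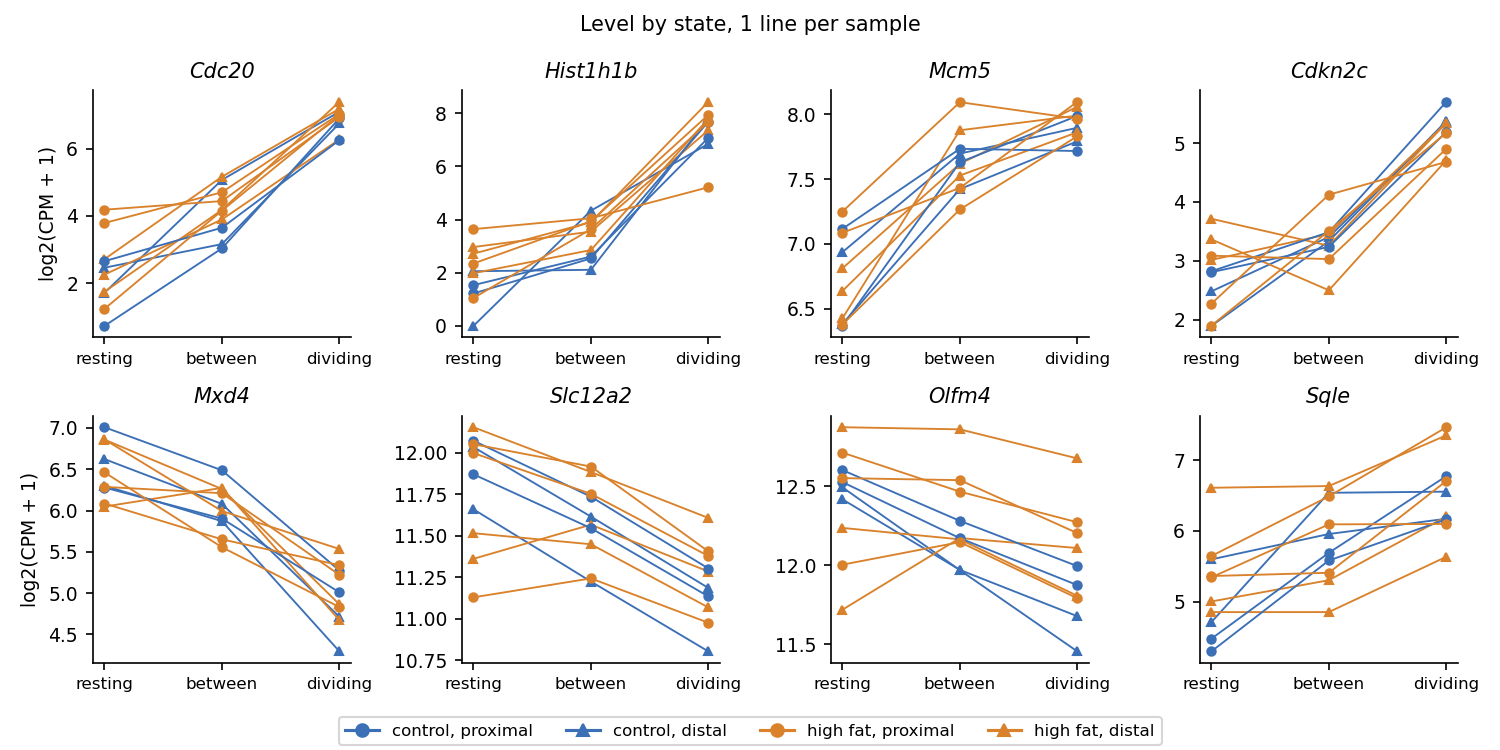
Level of 8 genes as log2(CPM + 1) in resting, between and dividing cells, 1 line per sample, colour by diet and shape by organ. Cdc20 and Hist1h1b step up in dividing cells, Mcm5 rises already between the states, Cdkn2c and Sqle end higher in 10 of 10 samples, Mxd4 and Slc12a2 end lower in 10 of 10, and Olfm4 ends lower in 9 of 10.

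The regulators of the entry into the cycle did not move as one group. Of 26 tested G1 cyclins, CDK inhibitors and E2F genes 13 were called higher and 4 lower, with a median of 0.24. The repressive E2F members E2f7 and E2f8, which shut replication genes down late in the cycle, rose by 3.89 ± 0.29 and 3.44 ± 0.15, more than the activator E2f1 at 1.06 ± 0.15. E2f1 turned to -0.56 with the gate on 3000 UMIs. The cyclins of early G1 did not pass the test, Ccnd1 at 0.04 ± 0.09 (295 ± 115 against 265 ± 96.9 CPM) and Ccnd2 at -0.07 ± 0.07 (661 ± 131 against 651 ± 78.6 CPM), with adjusted p of 0.789 and 0.416 in edgeR's test.

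A pair of CDK inhibitors, proteins that hold the cycle back, were higher in dividing cells. Cdkn2c was at 2.71, 6.03 and 12.1 CPM in resting, 4.65, 9.33 and 16.4 CPM between and 24.7, 37.6 and 51.1 CPM in dividing cells. Dividing samples lay above all others, and the log2 fold change was 2.58 ± 0.19 (SE, adjusted p = 9.11e-10 in edgeR's test). Cdkn1b, which codes for p27, was at 63.1, 94.5 and 124 CPM in resting and 98.4, 123 and 160 CPM in dividing cells. These ranges overlapped, yet within samples it was higher in 10 of 10, by 0.39 ± 0.07 (adjusted p = 0.000173 in edgeR's test, 0.38 in depth-matched cells).

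Myc and its antagonist Mxd4 both fell. Myc, which drives growth, was at 51.8, 103 and 195 CPM in resting, 70, 109 and 188 CPM between and 41.0, 68.2 and 108 CPM in dividing cells. The ranges overlapped, but it was lower in 10 of 10 samples, by a log2 fold change of -0.65 ± 0.09 (adjusted p = 5.88e-06 in edgeR's test, -0.59 in depth-matched cells). Mxd4, which competes with Myc for its partner, was at 65.1, 82.5 and 128 CPM in resting and 18.6, 29.7 and 45.3 CPM in dividing cells, with no overlap, a log2 fold change of -1.67 ± 0.11. It was 1 of the 13 genes counted above whose dividing values all lay under the resting ones.

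Other genes that fell in every sample included Lbh, a Wnt-responsive cofactor, at -2.05 ± 0.19 (99.0 ± 47.5 against 24.7 ± 12 CPM), the cytoskeletal linker Dst at -1.70 ± 0.15 and the secreted ribonuclease Rnase4 at -1.59 ± 0.12. Adjusted p in edgeR's test were 3.01e-08, 1.45e-08 and 1.3e-09, and without cells marked as other types their values were -1.72, -1.61 and -1.35.

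Stem cell genes other than Lgr5 were lower in dividing cells. Of 37 tested, 28 were called lower and 1 higher, with a median log2 fold change of -0.51 against -0.03 over all genes. In the separate fits 29 of 37 were lower proximally and 14 of 36 distally, and whether the list differs between the organs was not tested. In depth-matched pairs 12 of 34 were called lower and 1 higher, against 1162 and 1194 of 7968 over all genes. The median there was -0.19, so the size of this decline moved when depth was matched. The part of depth in it was not tested further. With 1 value per mouse 18 of 37 were lower. The list's sum was 13149, 19945 and 21406 CPM in resting, 14930, 17241 and 20502 CPM between and 10935, 15158 and 18578 CPM in dividing cells, lower in 9 of 10 samples.

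Members differed in how they held up. Olfm4, a secreted glycoprotein used as a marker of crypt base cells, was at 3372, 5836 and 7509 CPM in resting and 2808, 3919 and 6548 CPM in dividing cells, with wide overlap. It was lower in 9 of 10 samples, by -0.51 ± 0.08 (adjusted p = 5.29e-05 in edgeR's test), and at -0.19 in depth-matched cells, where its adjusted p was 0.0526. Slc12a2, a chloride cotransporter, was at 2238, 3919 and 4561 CPM in resting and 1784, 2410 and 3120 CPM in dividing cells. It was lower in 10 of 10, by -0.65 ± 0.06, and remained called in depth-matched cells at -0.54.

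The growth factor gene Pdgfa showed the largest decline of the list and no overlap, with 109, 165 and 262 CPM in resting and 26.6, 64.2 and 96.5 CPM in dividing cells. Its log2 fold change was -1.46 ± 0.12, and -1.33 in depth-matched cells. The crypt transcription factor Sox9 stood at -0.76 ± 0.07, Soat1, which esterifies cholesterol, at -0.85 ± 0.09 and the stomach gastrokine Gkn3 at -1.05 ± 0.09, each lower in 10 of 10 samples and still called when depth was matched. Smoc2, a matrix protein, stood at -0.25 ± 0.06 and at -0.08 (adjusted p = 0.399) in matched cells. Ascl2, a master regulator of these cells, did not pass, at -0.11 ± 0.12 (72.0 ± 22.7 against 68.5 ± 16.1 CPM, adjusted p = 0.479 in edgeR's test).

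Genes linked to reserve or slowly dividing stem cells gave 5 of 7 called lower and 0 higher, with a median of -0.35 (2 of 6 lower in matched cells). Hopx was lower in 10 of 10 samples by -0.35 ± 0.08 and Mex3a in 8 of 10 by -0.67 ± 0.17, while Bmi1, a Polycomb gene, was at 0.01 ± 0.11 (adjusted p = 0.995). The homeobox gene Prox1, also a marker of secretory cells, was lowest at -2.24 ± 0.29, on 19.1 ± 14.9 against 3.44 ± 4.38 CPM, and without cells marked as other types it was too low to be tested.

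Wnt signalling keeps crypt cells in the stem state, and its targets overlap with the stem cell list in several members. Of 15 tested targets 11 were called lower and 0 higher, with a median of -0.54. In the separate fits 10 of 15 were lower proximally and 4 of 14 distally. In depth-matched pairs 5 of 14 were lower, with a median of -0.24. Axin2, a feedback inhibitor of the pathway, was at 273, 455 and 652 CPM in resting and 278, 358 and 583 CPM in dividing cells, which overlapped widely. Its value of -0.30 ± 0.07 was -0.17 in matched cells (adjusted p = 0.0571). Nkd1, another inhibitor, stood at -1.72 ± 0.25 on means of 10.8 ± 5.36 CPM in resting and 3.87 ± 2.21 CPM in dividing cells. The proximal sample of high fat diet mouse 1 went the other way for the list's sum, with a log2 ratio of 0.29 against -0.49 to -0.35 in the other proximal samples.

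Notch signalling sets the choice between absorptive and secretory fates. Of 18 tested genes 7 were called lower and 1 higher, with a median of -0.27. Dll1, the ligand carried by early secretory cells, was at 20.3, 41.6 and 80.3 CPM in resting and 16.4, 24.6 and 38.7 CPM in dividing cells. The ranges overlapped and it was lower in 10 of 10 samples, by -0.70 ± 0.13 (adjusted p = 0.00031 in edgeR's test). Without cells marked as other types it was -0.31 (adjusted p = 0.0979). Nrarp, a feedback target of Notch, was the member that rose, by 0.80 ± 0.11 (0.62 without those cells). Spdef, a factor of the secretory fate, was lower in 8 of 10 samples by -1.40 ± 0.34 (adjusted p = 0.00248 in edgeR's test). Atoh1, another such factor, was lower in 6 of 10 and higher in 4, at -0.83 ± 0.32 (adjusted p = 0.0461), and was not called with 1 value per mouse in limma (adjusted p = 0.499). Both were too low to be tested without the marked cells.

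Genes of finished secretory cells were lower in dividing cells in the fit over both organs. All 7 tested Paneth genes were called lower, with a median of -2.69. In the separate fits 7 of 7 were lower distally (median -3.36) and 1 of 7 proximally (-1.42), and the list's sum was higher in dividing cells in 3 of 10 samples. Whether the lists differ between the organs was not tested. Without the marked cells, which this list helped to pick, 0 of 6 Paneth genes were called and the median was 0.02. The antimicrobial peptide gene Defa17 went from -3.45 ± 0.55 to 0.20, and the matrix protease Mmp7 that processes such peptides from -2.71 ± 0.39 to -0.13. Resting levels of Mmp7 ran from 0 over a median of 194 to 3321 CPM, so a few samples carried the mean.

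Of 16 goblet genes 9 were lower and 0 higher, with a median of -0.79 and, in depth-matched cells, 11 of 13 lower at -1.09. Distally 11 of 16 were lower and proximally 2 of 14, and with 1 value per mouse 3 of 16. Without the marked cells 2 of 11 were lower and 2 higher. Spink4, a peptide of goblet cells, was at -2.01 ± 0.42 and at -0.05 without the marked cells. Of 4 enteroendocrine genes 3 were lower over both organs, 4 of 4 distally (median -4.01) and 1 of 4 proximally (median 0.07), and 1 with 1 value per mouse. Chga, a granule protein, was lower in 6 of 10 samples and higher in 4, at -2.17 ± 0.76 (adjusted p = 0.0277 in edgeR's test), and too low to be tested without the marked cells.

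Tuft cell genes had the lowest median of the lists, on 3 tested of 17 in the table. All 3 were called lower, with a median of -5.49. The list's sum had a median of 525.9 CPM in resting and 11.6 CPM in dividing cells, so these genes passed the low-count filter through the resting sums. A fall was thus nearly fixed in advance for any member tested, and the count is a description. Dclk1, a kinase that marks tuft cells and has been linked to long-lived quiescent crypt cells, was at 6.86, 72.5 and 252 CPM in resting, 0, 1.97 and 66.9 CPM between and 0, 0 and 15.4 CPM in dividing cells. It was lower in 10 of 10 samples, with a log2 fold change of -5.49 ± 0.30, and Rgs13 of the same cells of -5.52 ± 0.33. Cells with over 1% of their UMIs in tuft markers numbered 23 of 1121 resting and 0 of 1387 dividing cells, and without the marked cells no tuft gene was abundant enough to be tested. In limma with 1 value per mouse neither was called (adjusted p = 0.574 and 0.466).

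Absorptive genes were mixed, with 13 of 27 lower, 4 higher and a median of -0.35, and 7 lower and 2 higher with 1 value per mouse. The peptidase Anpep fell by a log2 fold change of -1.26 ± 0.19, lower in 10 of 10 samples, and the apolipoprotein Apoa1 stood at -1.35 ± 0.44 on 25.6 ± 30.9 against 9.25 ± 8.23 CPM. T and B cell genes summed to 48.3 to 523.6 CPM in resting and 31.9 to 318.7 CPM in dividing cells, overlapping widely, and the 3 tested had a median of -0.26. Stromal and endothelial markers summed to at most 96.7 CPM, with 4 of 8 at 0 in each state.

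**Figure D5:**
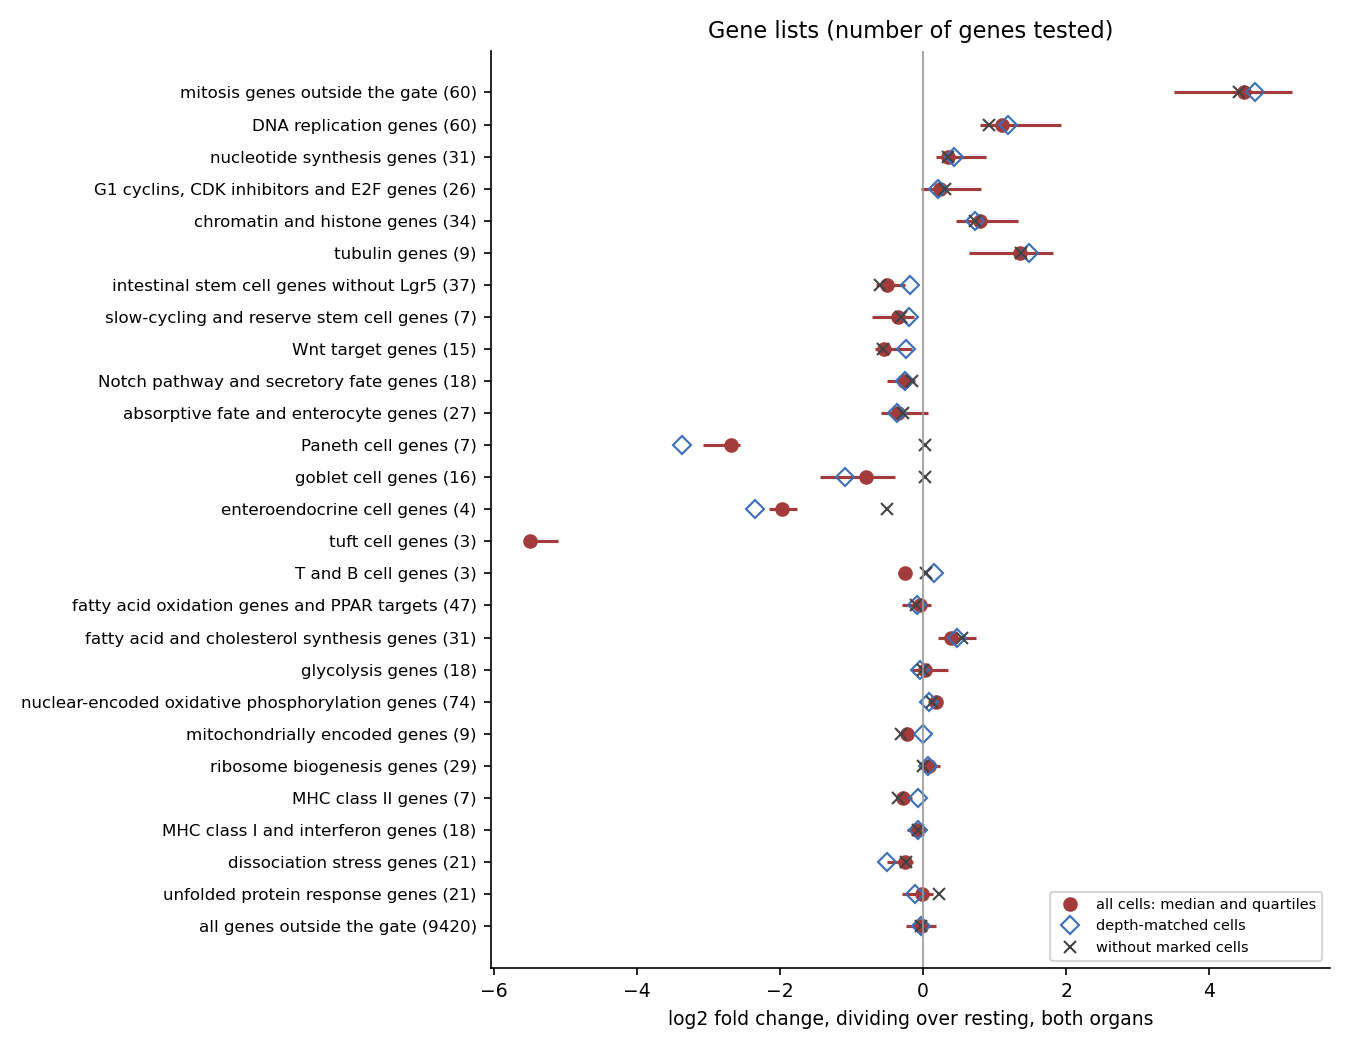
Median log2 fold change of dividing over resting cells for each gene list, with a line from the first to the third quartile, and the medians in depth-matched cells (open diamonds) and without cells marked as other types (crosses); the number of tested genes is in brackets. Mitosis genes lie at 4.49, replication genes at 1.1 and stem cell genes at -0.51, and the Paneth median moves from -2.69 to 0.02 without marked cells.

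The study asks about fatty acid oxidation, and these genes did not move together. Of 47 tested oxidation genes and PPAR targets 7 were called higher and 13 lower, with a median of -0.05 against -0.03 over all genes. Over all genes 20.2% were called higher and 20.6% lower, so these counts were not far from the background. With library totals alone 12 were higher and 10 lower, against 2496 and 1313 of 9420 over all genes. With 1 value per mouse 4 were higher and 7 lower, against 1419 and 1188 of 9420. Cpt1a, which brings long fatty acids into mitochondria and limits their oxidation, was at 91.7, 242 and 462 CPM in resting and 127, 301 and 608 CPM in dividing cells. It was higher in 9 of 10 samples, and its log2 fold change of 0.17 ± 0.07 did not pass (adjusted p = 0.0599 in edgeR's test).

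The members that fell included Acaa1a, the peroxisomal thiolase, at -0.56 ± 0.07, the thioesterases Acot1 and Acot2 at -0.67 ± 0.15 and -0.68 ± 0.15, and the medium-chain dehydrogenase Acadm at -0.33 ± 0.07. Each was lower in 9 of 10 samples. Acsl3, which activates fatty acids at the endoplasmic reticulum, rose by 0.49 ± 0.08 and was the largest rise. Of the receptors, Ppara was at -0.29 ± 0.10 (adjusted p = 0.0341) and Ppard at -0.10 ± 0.08 (adjusted p = 0.309 in edgeR's test).

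Lipid synthesis moved more than oxidation did. Of 31 tested fatty acid and cholesterol synthesis genes 22 were called higher and 2 lower, with a median of 0.39, and 16 of 29 higher and 0 lower in matched cells, at 0.48. Sqle, which carries out an early oxygenation in sterol synthesis, was at 18.6, 35.3 and 96.7 CPM in resting, 27.9, 55.9 and 98.4 CPM between and 48.7, 82.9 and 176 CPM in dividing cells. The ranges overlapped, but within samples it was higher in 10 of 10, by 1.22 ± 0.16 (adjusted p = 3.62e-06 in edgeR's test). The sterol sensor partner Insig1 rose by 0.96 ± 0.14, and Hmgcs1, near the head of the pathway, by 0.83 ± 0.15. The desaturase Scd2 was at 0.65 ± 0.14 and higher in 8 of 10.

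Glycolysis genes split, with 7 of 18 higher, 5 lower and a median of 0.03, and 3 of 15 higher, 3 lower and a median of -0.04 in depth-matched cells. Pgk1 rose by 0.64 ± 0.17 and lactate dehydrogenase Ldha by 0.31 ± 0.06, and the Ldha value was 0.10 in depth-matched cells. Aldoa fell by a log2 fold change of -0.69 ± 0.07 and Pfkfb3, whose product speeds glycolysis up, of -1.61 ± 0.20, each lower in 10 of 10 samples. Pfkfb3 was at -0.60 without cells marked as other types.

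In the main fit the nuclear and the mitochondrial genome's respiratory genes went in opposite directions, by small amounts. Both medians were smaller in size in depth-matched cells, which were also fewer, 622 per state against 1387 dividing and 1121 resting cells. The parts of depth and of the choice of cells in this were not tested. Of 74 tested nuclear-encoded oxidative phosphorylation genes 41 were called higher and 3 lower, with a median of 0.18, and 12 and 3 of 71 in matched cells, at 0.09. Over all genes 1194 of 7968 were called higher in matched cells, about the same share as in this list. With 1 value per mouse 17 of the 74 were higher and 1 lower. Cyc1, of complex III, was higher in 10 of 10 samples by 0.42 ± 0.06, and 0.22 in matched cells. Of 9 mitochondrially encoded genes 6 were called lower and 0 higher, with a median of -0.23, and 2 of 9 in matched cells, at 0.00. The ribosomal RNA mt-Rnr2 was at 59139, 86740 and 107702 CPM in resting and 49194, 65680 and 90979 CPM in dividing cells. Its value of -0.44 ± 0.04 was -0.10 in matched cells, and mt-Co1 went from -0.32 ± 0.04 to -0.07.

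Ribosome biogenesis, which feeds growth, gave 9 of 29 called higher and 0 lower at a median of 0.08 (5 of 28 higher in matched cells), led by Nhp2, a protein of small nucleolar particles, at 0.45 ± 0.07. MHC class II genes, which present antigen, gave 4 of 7 lower and 0 higher at a median of -0.28. In matched cells 0 of 6 were called, with a median of -0.07, in the distal fit 0 of 7, and with 1 value per mouse 1 of 7. Ciita, their activator, was at -0.53 ± 0.17. MHC class I and interferon genes gave 5 of 18 lower and 2 higher, with H2-T23 at -0.91 ± 0.16. Over all genes 20.6% were called lower and 20.2% higher. With 1 value per mouse 1188 of 9420 genes were lower, about the share of the MHC class II genes.

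Genes that respond to tissue dissociation gave 12 of 21 lower and 1 higher, with a median of -0.25. In matched cells 12 of 17 were lower and 1 higher, at -0.51. With 1 value per mouse 4 were lower and 1 higher, where over all genes 1188 of 9420 were lower. Fosb, an immediate early factor, stood at -0.87 ± 0.18 and Btg2, which restrains proliferation, at -0.87 ± 0.18. The member that rose was the chaperone Hsp90aa1, by 0.77 ± 0.06 in 10 of 10 samples. Unfolded protein response genes gave 4 higher and 4 lower of 21 over both organs, about the shares over all genes (20.2% and 20.6%). The separate fits pointed opposite ways. Proximally 9 of 21 were higher and 1 lower (median 0.18), against 13.3% and 11.7% over all genes. Distally 1 of 21 was higher and 4 lower (median -0.18), against 12.8% and 12.1%. Whether this list differs between the organs was not tested. In matched cells 0 of 20 were higher and 4 lower, against 1194 and 1162 of 7968 over all genes. Without cells marked as other types 12 were higher and 1 lower, against 1835 and 1991 of 9174 over all genes.

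The change from resting to dividing differed between the organs for 5 of 9420 genes (0.0531%) in edgeR's interaction test, Adh1, Btg2, Reg4, Thbs1 and Fabp1, and 654 genes had an unadjusted p under 0.05. Btg2 was at 72.1, 96.6, 75.7, 154.3 and 279.0 CPM in resting and 23.9, 40.0, 31.0, 60.4 and 73.4 CPM in dividing distal cells (control mice 1 and 2, then high fat diet mice 1 to 3). In proximal cells the same mice gave 118.3, 75.9, 66.9, 143.4 and 87.2 CPM resting and 125.5, 41.4, 74.0, 130.5 and 87.4 CPM dividing. It was thus lower in 5 of 5 distal and 2 of 5 proximal samples, with a difference of 1.39 ± 0.20 (adjusted p = 0.00383 in edgeR's test). In edgeR, 0 genes were called for this difference without cells marked as other types or without high fat diet mouse 3, and 0 in limma with 1 value per mouse, while 415, 393 and 433 had an unadjusted p under 0.05.

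No gene of 9420 (0.0%) differed between the diets in its change from resting to dividing, in edgeR, DESeq2 or limma voom, while 421, 140 and 585 had an unadjusted p under 0.05. The difference, high fat minus control, was 0.04 ± 0.13 (SE) for Cpt1a, 0.99 ± 0.22 for Acot1 and 0.49 ± 0.13 for Olfm4, with adjusted p of 1, 0.993 and 0.993 in edgeR's test. In simulated data of the same size, 67% of genes given a log2 difference of 1 between diets were recovered. Of those given 0.5, 4% were recovered, so small differences would mostly be missed. These shares hold for the spread set in the simulation, which was not compared with that between the mice. The share recovered in the real data may therefore be lower.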

How the data were processed

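Per the labels' protocols, cells were captured by Seq-Well, with a step that makes the second strand again, and the build was mm10 per the submitters' processing notes; the aligner and counter are not given in the sources used here. The deposited values are raw UMI counts per gene and cell (17185 genes), whose sums equalled the authors' totals in 18919 cells. The authors' table numbers the control mice 1 and 3, and its number 3 was read as the labels' control mouse 2, the only one without a match. The members, gene lists and tests were chosen with earlier results of these data known.

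Counts were summed per sample and state (376048 to 8865914 UMIs in dividing and 523288 to 2636495 in resting sums). edgeR 4.0.16 (TMM, filterByExpr, quasi-likelihood F test, sample as block, R 4.3.3) compared the states over 10 samples, with Benjamini-Hochberg adjustment over all genes tested and a threshold of 0.05; SEs are the log2 fold change over the root of F. The 2 organs of a mouse entered as separate pairs, so p-values treat them as independent; limma with 1 value per mouse was an alternative. Both states of a sample come from 1 mouse and library, and their deviations from the state means correlated at 0.27 to 0.65 over 10 pairs. The limit of 3000 UMIs left out 59 stem-called cells, and cells between the states did not enter the tests. No other cells were removed in the main fit. Doublets were called by Scrublet in scanpy 1.11.5. Alternatives were other gates, depths, cell filters, scalings, DESeq2 1.42.0, limma voom (3.58.1) and leaving out each mouse. Calling the states at 3000 UMIs per cell was added after seeing the data. Each sum needed at least 10 cells. This left the proximal sample of high fat diet mouse 1 out of the fits with states called at 3000 UMIs. The method was tested on simulated data: 97.0%, 99.0% and 100.0% of log2 changes of 1 were recovered in the proximal, distal and joint comparisons. The spread set in the simulation was not compared with that between the mice, so recovery in the real data may be lower. Intervals cover counting error only. p-values of the joint comparison measure the spread over 10 mouse and organ samples from 5 mice, which the labels number separately, and those within an organ the spread between mice.

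Named genes were the called members with the largest change and the most abundant uncalled members of each list, the 12 largest rises and falls outside the cell cycle lists, and a fixed set of stem, cell cycle and PPAR genes. Cdc20, Kif22, Espl1, Mcm3 to Mcm6, Orc1, Cdt1, Pcna, Ccnb1, Ccna2, Plk1, Aurka, Foxm1, Pttg1, Psat1, E2f1, Slc12a2, Soat1, Hmgcs1, Ldha, Acsl3 and Acadm were added after their values were seen. A few results are not reported here.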

Additional observations from a re-analysis of the deposited data

Results flagged for a closer look

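The proximal sample of high fat diet mouse 1 lay far from the other 4 proximal samples in 3 values. Its ratio of median UMIs, dividing over resting, was 2.88 against 1.45 to 1.57, its log2 ratio of summed mitosis gene CPM 2.24 against 3.20 to 3.55, and that of Wnt target genes 0.29 against -0.49 to -0.35. It held 25 dividing and 58 resting cells.

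Among distal samples, high fat diet mouse 3 stood above the others in the log2 ratio of summed DNA replication genes (1.51 against 1.11 to 1.22) and ribosome biogenesis genes (0.57 against 0.08 to 0.19). Control mouse 1 stood at 2.54 in enteroendocrine genes, against -4.05 to -2.19 in the others, on 31 dividing cells. Of 56 groups of 5 values looked at, 6 had a value this far out, where chance gives about 1 in 20.

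The change from resting to dividing differed between the organs for 5 genes in edgeR's interaction test, proximal minus distal. The log2 difference was 2.45 ± 0.42 for Adh1, an alcohol dehydrogenase (adjusted p = 0.025), 1.39 ± 0.20 for Btg2 (adjusted p = 0.00383), 4.70 ± 0.83 for Reg4, a marker of secretory cells (adjusted p = 0.0292), 1.72 ± 0.29 for the matrix protein Thbs1 (adjusted p = 0.0199) and 3.53 ± 0.44 for the fatty acid carrier Fabp1 (adjusted p = 0.00127). Distal resting Fabp1 was at 100 CPM in high fat diet mouse 3 and at 6.32 CPM or less in the other 4 mice.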

How the results depend on the processing

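Of 3843 genes called over both organs (2439 proximal, 2351 distal), 2356 (1223, 1519) were called in depth-matched cells, 1415 (735, 890) with cells thinned to 3000 UMIs and 2290 (977, 890) with no replicate block; DESeq2 called 1371 proximal and 1474 distal. Without 1 mouse the counts were 2877 to 3622, 1580 to 2733 and 1663 to 2137. The 5 genes of the organ difference became 3 with 3 gate genes, 2 with no gate gene in resting cells, 2 depth-matched, 0 without marked cells, 48 with states called at 3000 UMIs, 3 in DESeq2, 155 with no low-count filter, 0 with no replicate block, 0 with 1 value per mouse and 0 to 14 without 1 mouse. The 0 genes of the diet difference became 1 depth-matched, 2 without marked cells, 9 with states at 3000 UMIs, 43 with no filter and 0 to 1 without 1 mouse. The diet difference in the dividing share ran from -25.1 to 6.81 percentage points (proximal) and -9.45 to 16.5 (distal) without 1 mouse, changing sign when control mouse 2 (6.81) or mouse 1 on high fat diet (0.12) was left out, and distally for control mouse 1 (-9.45) or mouse 3 on high fat diet (-2.28).

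With states at 3000 UMIs, direction turned for Mcm2 (-0.75), Mcm3 (-0.59), Mcm4 (-0.53), Mcm6 (-0.43), Cdt1 (-0.78), E2f1 (-0.56), Orc1 (-0.14), Ccnd1 (-0.43) and Ascl2 (0.065). Without marked cells it turned for Mcm2 (-0.033), Ccnd1 (-0.13), Defa17 (0.20), Fabp1 (0.16) and the organ difference of Adh1 (-0.30). Ccnd1 was also -0.035 depth-matched, -0.085 thinned, -0.059 with a stem call at 2 UMIs and -0.062 to 0.135 without 1 mouse. Ccnd2 was 0.036 with 3 gate genes and 0.0088 with library totals, Ung 0.061 and 0.11 with the other gates, Ascl2 0.080 depth-matched, Ppara 0.054 with no gate gene, and Bmi1 -0.058 with no gate gene, -0.011 from 5000 UMIs, -0.0064 in voom and -0.085 to 0.098 without 1 mouse. The causes were not tested. Of 108 named genes called, 27 lost the call and 8 changed sign under at least 1 alternative; 93 were called with 1 value per mouse. Sums of 25 dividing cells limit the proximal sample of high fat diet mouse 1. With states at 3000 UMIs it had 6 dividing cells and was left out of those fits. They therefore differ from the main fit in a sample as well as in the gate, also for the 48 and 9 genes called there between organs and diets.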
